A study of Fundulus heteroclitus with 15 samples.

Results

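The genes described here are those of the Golgi coats and of vesicle transport between the endoplasmic reticulum (ER), the Golgi apparatus and endosomes, measured in the liver of mummichog (Fundulus heteroclitus), a killifish of estuaries. They were chosen by name: a probe was a member if its name on the array contained coatomer, "Protein transport protein Sec" (but not Sec61), "Ras-related protein Rab", "ADP-ribosylation factor", syntaxin, "Vesicle-associated membrane", "Vesicle-trafficking", "Transmembrane emp24", SAR1, Golgi or "Trafficking protein particle". The rule found 50 probes for 47 genes among 7152 probes. It reads names only, but it was drawn up with earlier results of these data known. No probe was named for SAR1. Of the 50 members, 43 (86%) were bright enough to be tested, against 85.9% of all probes.

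The fish were adult females kept for 14 days in water with 17α-ethinylestradiol (EE2), a synthetic estrogen used in contraceptive pills. The control group received none (0 ng/L), and the exposed groups received 50 or 250 ng/L. Liver RNA of each group was labelled with Cy3 and hybridised to 5 one-colour Agilent arrays, which the labels call biological replicates, so that 15 arrays were measured in all. The sources used here give neither the strain nor whether an array held 1 fish or a pool.

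Secreted and membrane proteins leave the ER in vesicles wrapped in the COPII coat, whose inner layer is built from Sec23 and Sec24, and COPI vesicles coated with coatomer carry proteins back from the Golgi. Small GTPases of the ARF, SAR1 and Rab families start coat assembly and mark each compartment, tethers such as the TRAPP and COG complexes catch the arriving vesicle, and SNARE proteins fuse it with its target. In the liver of egg-laying fish this route carries plasma proteins and, under estrogen, the yolk precursor vitellogenin.

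A level below is the log2 signal of a probe minus the log2 of the array's own 75th percentile, a shift is the difference between the mean levels of 2 groups, and its error is the standard error from limma. Levels of different probes cannot be set against each other, since probes differ in brightness. Vitellogenin was first looked at as a known estrogen-responsive gene: 7 of 9 vitellogenin probes were higher at 50 ng/L and 8 of 9 at 250 ng/L (limma, adjusted p under 0.05), with median shifts of 3.26 and 7.48. Of the 46 probes of hepatocyte proteins, the 43 tested had mean levels of 3.75 to 4.35 on the 15 arrays. In each group, 43 were well above background on every array. The 60 probes of exocrine pancreas proteins, of which 55 or more were well above background throughout each group and 0 were below it throughout a group, varied far more. Their mean level ran from -2.33 to 0.68 in controls, from -0.66 to 1.54 at 50 ng/L and from -0.27 to 2.05 at 250 ng/L, and their summed signal from 46 to 788, from 229 to 1710 and from 296 to 2325 times the array's 75th percentile. The tested muscle probes (32 of 54) and red blood cell probes (13 of 17) had mean levels of -5.41 to -4.69 and -3.35 to -2.23. In RNA from whole liver, fewer cells of a type and less RNA per cell cannot be told apart.

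No member passed the test in any comparison. At 50 ng/L against control, 0 of 43 members were called by limma at an adjusted p under 0.05, where 0.553% of all 6145 tested probes were called, all of them higher. At 250 ng/L against control, 0 of 43 members were called, against 2.7% of all probes (2.05% higher and 0.651% lower). Between 250 and 50 ng/L the count was again 0 of 43, against 1.09% of all probes (1.06% higher at 250 ng/L and 0.0325% lower). At rates this low, fewer than 2 of 43 probes would be called at the background share, so the zero counts lie near the background and say little about the members as a group. At an unadjusted p under 0.05 the counts were 0, 1 and 2 members, against 4.1%, 13.6% and 8.12% of all probes. Without the filter on dim probes, 0 of all 50 members were called in the 3 comparisons, and 0, 2 and 3 had an unadjusted p under 0.05. The shares of all probes in that unfiltered fit are not given here, and the percentages above are for the filtered probes. Whether the unfiltered counts are low, usual or high can therefore not be judged.

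The shifts of the members were small. Their median was 0.04 at 50 ng/L, where the median of all probes was -0.01, and -0.04 at 250 ng/L, where that of all probes was -0.05. At 50 ng/L, 24 of 43 members had a shift above 0 (55.8%, against 49.1% of all probes), and at 250 ng/L 19 of 43 did (44.2%, against 44.8%). The shifts ran from -0.62 to 0.68 at the lower dose and from -0.52 to 0.91 at the higher. For 32 of 43 members at each dose (74.4%) the 95% interval of the shift lay inside a 2-fold difference in either direction, which held for 65% of all probes at 50 ng/L and 55.4% at 250 ng/L. The same held between the doses for 33 members (76.7%) and 59.8% of all probes, and 19 members (44.2%) had a shift above 0, as did 44.7% of all probes. For the other 11 members at each dose these arrays do not exclude a 2-fold difference. The within-group SD of the members had a median of 0.408 (0.175 to 0.95), against 0.473 for all tested probes. The 2 doses were set against the same 5 control arrays, so their shifts are not independent.

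**Figure D1:**
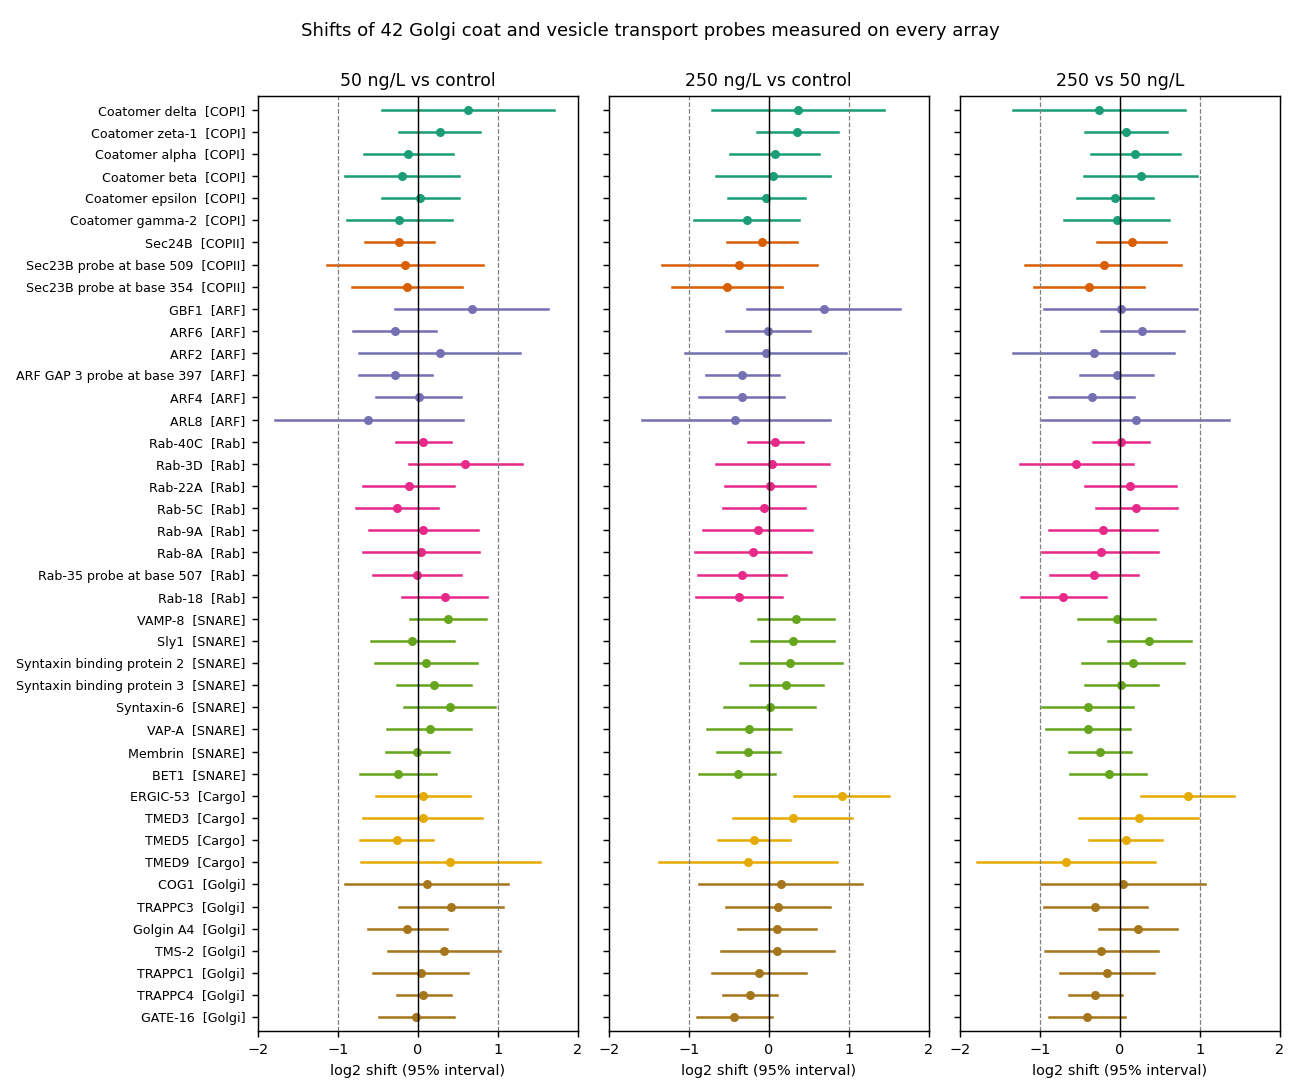
Log2 shift (points) and its 95% interval (lines) of the 42 tested members measured on every array, grouped and coloured by role, for each dose against control and for 250 against 50 ng/L; dashed lines mark a 2-fold difference. The interval of ERGIC-53 lies above 0 in the middle and right panels (0.32 to 1.50 and 0.26 to 1.43) and that of Rab-18 below 0 in the right panel (-1.24 to -0.17), while every other interval includes 0.

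The cargo receptors, which pick up proteins in the ER for transport to the Golgi, held the tested member with the smallest p. ERGIC-53 (also called LMAN1), a mannose-binding lectin that ferries glycoproteins out of the ER, had control levels of 0.31, 0.86, -0.31, 0.88 and -0.26 (mean 0.30 ± 0.579, SD, n = 5). At 50 ng/L its levels were 0.84, 0.00, 0.38, -0.10 and 0.68 (0.36 ± 0.407), and at 250 ng/L 1.58, 1.14, 0.88, 1.11 and 1.33 (1.21 ± 0.264). All 5 arrays at 250 ng/L lay above all 5 at 50 ng/L, whereas the lowest array at 250 ng/L was level with the highest control to 2 decimals. The shift at 250 ng/L against control was 0.91 ± 0.276, a ratio of 1.88 with a 95% interval of 1.25 to 2.83, and it did not pass after adjustment over all probes (limma, unadjusted p = 0.00478, adjusted p = 0.117). Between the doses the shift was 0.85 ± 0.276 (limma, adjusted p = 0.282), and at 50 ng/L against control it was 0.07 ± 0.276.

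The pancreas markers varied beside ERGIC-53, so its shift was also fitted with their mean level as a covariate. It was then 1.07 at 250 ng/L (limma, adjusted p = 0.0602). Without the arrays that lay farthest apart in pancreas markers, control replicate 2 and 250 ng/L replicate 3, it was 1.14 (adjusted p = 0.0654). For ERGIC-53 itself, control replicate 2 was a high control (0.86) and 250 ng/L replicate 3 the lowest array at that dose (0.88). Leaving them out therefore had to raise the shift, whatever the pancreas markers did. A part of pancreas tissue in the shift was not tested. Within the slides, which each carried arrays of all 3 groups, it was 0.61 on slide 1 (2 control and 3 exposed arrays) and 1.12 on slide 2 (3 control and 2 exposed arrays). Over 30 alternative settings it ran from 0.61 to 1.14, and its smallest adjusted p was 0.0561, reached without control replicate 4.

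The other cargo receptors were 3 p24 proteins (TMED), membrane proteins that sort cargo into COPI and COPII vesicles. TMED3 had control levels of -0.42, -0.22, -0.29, 0.99 and 0.01, levels of 0.72, 0.36, -0.58, -0.55 and 0.43 at 50 ng/L, and of 0.02, -0.45, 0.47, 1.05 and 0.47 at 250 ng/L. The 3 groups overlapped over nearly their whole range, and its shift at 250 ng/L was 0.30 ± 0.348. TMED5 lay between -1.42 and -0.67 in controls, between -1.51 and -1.34 at 50 ng/L and between -1.67 and -0.57 at 250 ng/L, with shifts of -0.26 ± 0.212 and -0.19 ± 0.212. TMED9 was among the most variable members, with within-group SDs of 0.931, 1.03 and 0.696 and shifts of 0.40 ± 0.521 and -0.26 ± 0.521. All 4 cargo receptors were well above background on all 15 arrays.

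**Figure D2:**
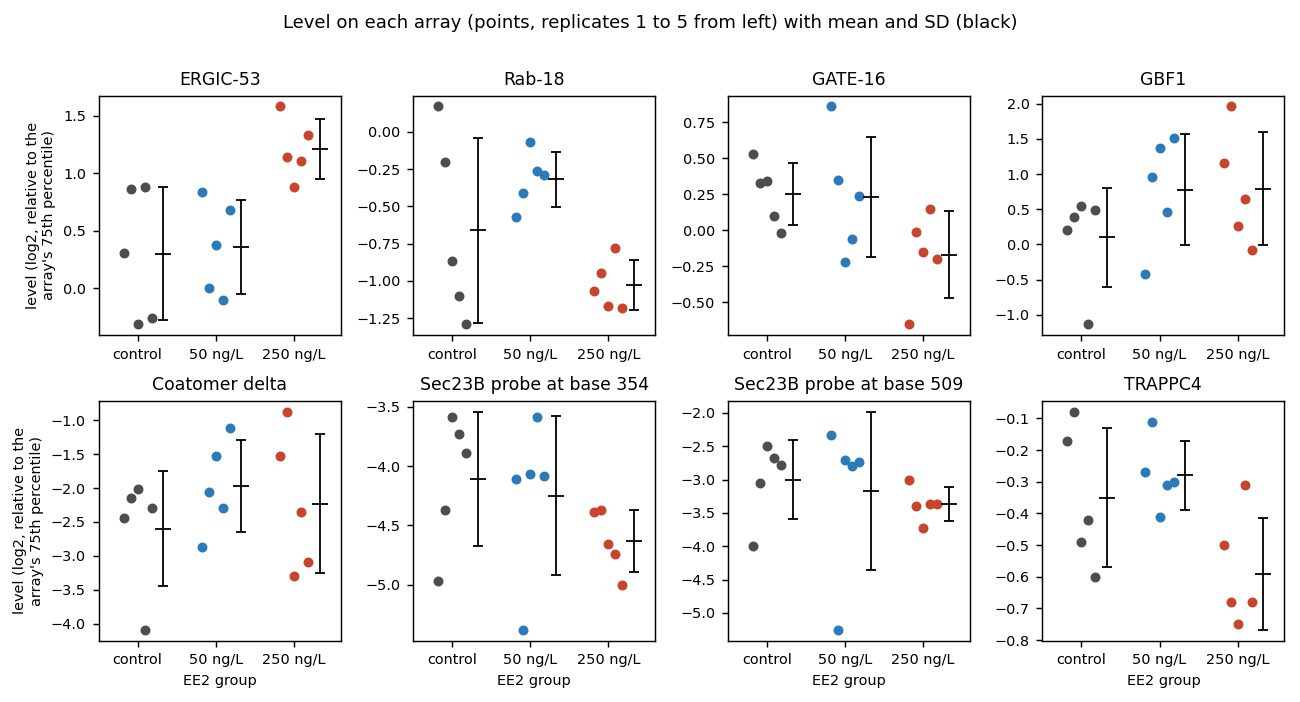
Level of 8 members on each array (points; 5 per group, replicates 1 to 5 from left to right) with the mean and SD of each group in black, on the log2 scale relative to the array's 75th percentile. The ERGIC-53 points at 250 ng/L (0.88 to 1.58) lie above those at 50 ng/L (-0.10 to 0.84), the Rab-18 points at 250 ng/L (-1.18 to -0.78) below those at 50 ng/L (-0.57 to -0.07), and single low arrays stand apart for GBF1, coatomer delta and Sec23B.

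Coatomer, the 7-subunit complex of the COPI coat, was represented by 7 probes, 1 each for alpha, beta, delta, epsilon, gamma-2, zeta-1 and zeta-2. As zeta-1 and zeta-2 are 2 forms of 1 subunit, the 7 probes do not cover all 7 subunits. At 250 ng/L 4 of the 6 tested subunits had a shift above 0 and 2 below it, with a median of 0.07, and at 50 ng/L the split was 3 and 3 with a median of -0.04. Coatomer zeta-2 was not well above background on any of the 15 arrays, so only zeta-1 of the paired zeta subunits was measured. Coatomer zeta-1, a small subunit of the inner part of the coat, had control levels of 0.26, 0.78, 0.43, 1.27 and 0.39, against 1.09, 1.30, 0.53, 0.33 and 1.25 at 50 ng/L and 1.01, 0.69, 1.09, 1.04 and 1.08 at 250 ng/L. Control replicate 4 and 50 ng/L replicate 2 were its highest arrays, and the groups overlapped. Its shift at 250 ng/L was 0.35 ± 0.238 (95% interval -0.15 to 0.86), and limma gave an adjusted p of 0.593.

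Coatomer delta, another inner-coat subunit, had control levels of -2.44, -2.14, -2.02, -4.09 and -2.30. Its levels at 50 ng/L were -2.87, -2.06, -1.53, -2.30 and -1.11, and those at 250 ng/L were -1.53, -0.88, -3.30, -2.35 and -3.09. Control replicate 4 lay far below the other controls, and the exposed arrays spread over more than 2 log2 units at 250 ng/L. Its shifts were 0.63 ± 0.504 at 50 ng/L and 0.37 ± 0.504 at 250 ng/L, with intervals of -0.45 to 1.70 and -0.71 to 1.44. Without control replicate 4 they were 0.25 and -0.01. Coatomer gamma-2 had shifts of -0.23 ± 0.307 and -0.27 ± 0.307; its within-group SD was 0.253 in controls and 0.13 at 50 ng/L, against 0.813 at 250 ng/L, where replicate 2 stood at -0.74 and replicate 1 at 1.34. Coatomer alpha, beta and epsilon had shifts of 0.08, 0.05 and -0.03 at 250 ng/L, with intervals that all lay inside a 2-fold difference.

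The COPII coat was represented by 2 probes of Sec23B, which forms the inner shell of the coat, and 1 of Sec24B, which binds the cargo. All 3 had shifts below 0 at both doses, with a median of -0.16 at 50 ng/L and -0.37 at 250 ng/L. Of the 3 probes 2 are of 1 gene, and both doses share the controls. Without 50 ng/L replicate 2, the shifts at 50 ng/L were 0.15 and 0.36 for the Sec23B probes at bases 354 and 509, and -0.09 for Sec24B. The Sec23B probe starting at base 354 of its contig had control levels of -4.97, -4.37, -3.59, -3.73 and -3.89, against -4.11, -5.38, -4.07, -3.59 and -4.08 at 50 ng/L and -4.39, -4.37, -4.66, -4.74 and -5.00 at 250 ng/L. Control replicate 1 and 50 ng/L replicate 2 were low, and the groups overlapped. Its shift at 250 ng/L was -0.52 ± 0.322 (limma, adjusted p = 0.548), with an interval of -1.21 to 0.16. It was 0.20 on slide 1 and -1.13 on slide 2, so that the slides gave shifts of opposite sign.

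The other Sec23B probe, starting at base 509 of another contig, had the same low arrays: control replicate 1 at -4.00 with the other controls between -3.05 and -2.50, and 50 ng/L replicate 2 at -5.25 with the others between -2.80 and -2.33. At 250 ng/L it lay between -3.73 and -3.00, inside the range of the controls. Its shift there was -0.37 ± 0.456, with 0.15 on slide 1 and -0.71 on slide 2. Sec24B was less variable, at -3.64 to -3.15 in controls, against -4.22 to -3.24 at 50 ng/L and -3.73 to -3.37 at 250 ng/L. Its lowest array was again 50 ng/L replicate 2, and its shifts were -0.23 ± 0.203 and -0.09 ± 0.203.

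ARF proteins recruit coatomer to Golgi membranes, their exchange factors switch them on and ARF GAP proteins switch them off. This class held 9 probes, 7 of them tested, with 1 shift above 0 and 6 below it at 250 ng/L (median -0.33) and 3 above and 4 below at 50 ng/L (median -0.28). The 1 member above 0 at 250 ng/L was GBF1, the exchange factor that activates ARF at the early Golgi. Its control levels were 0.21, 0.39, 0.55, -1.13 and 0.49, those at 50 ng/L -0.42, 0.96, 1.37, 0.46 and 1.51, and those at 250 ng/L 1.16, 1.96, 0.26, 0.65 and -0.08. Without control replicate 4 the controls spanned 0.21 to 0.55, and the exposed groups held arrays both above and below that span. The shifts of GBF1 were 0.68 ± 0.448 and 0.69 ± 0.448 (limma, adjusted p = 0.999 and 0.575), and without control replicate 4 they were 0.37 and 0.38. Within slides the shift at 50 ng/L was -0.03 on slide 1 and 1.15 on slide 2.

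ARF GAP 3, a GTPase-activating protein of the Golgi, had 2 probes. The bright one, starting at base 397, had levels of -2.29, -2.31, -2.09, -2.01 and -2.01 in controls, against -2.22, -3.08, -2.11, -1.90 and -2.81 at 50 ng/L and -2.22, -2.54, -2.54, -2.61 and -2.43 at 250 ng/L. Of the arrays at 250 ng/L, 4 lay below all controls and 1 among them. Its shift was -0.33 ± 0.216 (limma, adjusted p = 0.583), with an interval of -0.79 to 0.13. The dim probe, starting at base 157, was well above background on 2 control arrays, 2 at 50 ng/L and 0 at 250 ng/L, and was not tested. Its mean levels were -6.69 ± 0.698, -7.03 ± 0.654 and -8.03 ± 0.432. Most arrays of every group were not well above background, so no fold is given. Fitted without the filter, limma gave it an unadjusted p of 0.00218 and an adjusted p of 0.081 at 250 ng/L.

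Of the ARF proteins themselves, ARF4, which acts at the Golgi and in sorting to the cell surface, had shifts of 0.01 ± 0.25 and -0.34 ± 0.25. ARF2 and ARF6, the latter an ARF of the plasma membrane, had shifts of -0.04 ± 0.472 and -0.01 ± 0.243 at 250 ng/L. ARF1 was well above background on 1 array only and was not tested, so the main ARF of COPI assembly was not measured here. ARL8, a member of the ARF-like family, had shifts of -0.62 ± 0.551 and -0.42 ± 0.551. It was dim and variable, with 12 of 15 arrays well above background and a within-group SD of 1.2 at 50 ng/L.

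Rab GTPases mark membranes for docking and recruit tethers and motors. They held 10 probes, 8 of them tested, with 3 shifts above 0 and 5 below it at 250 ng/L (median -0.10) and 5 above and 3 below at 50 ng/L (median 0.06). Rab-18, a Rab of the ER and of lipid droplets, had control levels of 0.17, -0.20, -0.87, -1.10 and -1.29. At 50 ng/L they were -0.57, -0.41, -0.07, -0.26 and -0.29, and at 250 ng/L -1.07, -0.95, -1.17, -0.78 and -1.18. The controls spread across the range of both exposed groups, which themselves were tight and did not overlap each other. The shift between the doses was -0.71 ± 0.251, a ratio of 0.612 with a 95% interval of 0.422 to 0.886 (limma, unadjusted p = 0.0128, adjusted p = 0.37). It lay between -0.77 and -0.57 in 30 alternative settings, and with the pancreas markers as a covariate it was -0.69.

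Against control the picture for Rab-18 depended on the slide. The 2 controls on slide 1 were its highest controls (0.17 and -0.20) and the 3 on slide 2 its lowest. The shift at 50 ng/L was 0.34 ± 0.251 on all arrays, -0.48 on slide 1 and 0.88 on slide 2, and that at 250 ng/L was -0.37 ± 0.251, -1.05 and 0.11. The shift between the doses kept its sign, at -0.57 and -0.77. Groups that did not overlap were found for 2 of 43 members between the doses, ERGIC-53 and Rab-18, where 2.91% of all probes did not overlap (2% with 250 ng/L higher, 0.911% lower). Against control, 0 members did not overlap at either dose, against 1.2% of all probes at 50 ng/L (0.83% higher and 0.374% lower) and 4.39% at 250 ng/L (2.47% higher and 1.92% lower).

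Of the other Rabs, Rab-3D, known from secretory granules, had the smallest p of the class at 50 ng/L. Its levels were -6.93 to -6.21 in controls, against -6.66 to -5.08 at 50 ng/L and -7.01 to -5.70 at 250 ng/L, and 12 of 15 arrays were well above background. Replicates 1 and 4 at 50 ng/L, at -5.26 and -5.08, stood above all other arrays of the probe. Its shifts were 0.59 ± 0.331 and 0.04 ± 0.331. Rab-35, an endosomal recycling Rab, was read by 2 probes of 1 contig. The probe at base 507 had shifts of -0.01 ± 0.258 and -0.33 ± 0.258, while the probe at base 778 was well above background on 1 array and was not tested. Rab-8A, which directs vesicles to the cell surface, had shifts of 0.04 ± 0.34 and -0.20 ± 0.34. Rab-5C and Rab-22A of early endosomes, Rab-9A of late endosomes and Rab-40C had shifts at 250 ng/L of -0.06, 0.02, -0.14 and 0.08, each with an interval inside a 2-fold difference. Rab-3 stayed below the background threshold throughout.

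The SNAREs and their partners held 8 probes, all tested, with 5 shifts above 0 and 3 below it at both doses and medians of 0.13 and 0.11. All 8 had intervals inside a 2-fold difference in each of the 3 comparisons. BET1, a SNARE of ER-to-Golgi vesicles, had levels of -2.30, -2.20, -2.49, -2.14 and -2.77 in controls, against -2.59, -2.82, -2.91, -2.30 and -2.52 at 50 ng/L and -2.59, -2.61, -3.57, -2.60 and -2.50 at 250 ng/L. At 250 ng/L 4 arrays lay within the control range and replicate 3 far below it. Its shift was -0.39 ± 0.223 (limma, adjusted p = 0.496). Without that replicate the shift was -0.19, and without control replicate 2 as well it was -0.15.

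Membrin, the SNARE partner of BET1 at the early Golgi, had shifts of -0.01 ± 0.184 and -0.26 ± 0.184. VAMP-8, a SNARE of late endosomes and of secretory granules, had control levels between -0.94 and -0.18, levels between -0.45 and -0.02 at 50 ng/L and between -0.83 and 0.49 at 250 ng/L. Its shifts were 0.38 ± 0.224 and 0.34 ± 0.224, with intervals of -0.10 to 0.85 and -0.14 to 0.82. Syntaxin-6, a SNARE of the trans-Golgi network, had shifts of 0.40 ± 0.268 and 0.01 ± 0.268. Sly1 and syntaxin binding proteins 2 and 3, which belong to the Sec1/Munc18 family of SNARE regulators, had shifts at 250 ng/L of 0.30, 0.27 and 0.22. VAP-A, an ER protein of membrane contact sites that the rule found through its name, had a shift of -0.25 ± 0.247.

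The last class held 9 probes of tethers and other Golgi proteins, 7 of them tested, with 4 shifts above 0 and 3 below it at 250 ng/L (median 0.10) and 5 above and 2 below at 50 ng/L (median 0.07). GATE-16 (GABARAPL2), a ubiquitin-like protein of intra-Golgi transport and autophagosomes, had the smallest p of the class. Its levels were 0.53, 0.33, 0.34, 0.10 and -0.02 in controls, then 0.86, 0.35, -0.22, -0.06 and 0.24 at 50 ng/L and -0.65, -0.01, -0.15, 0.15 and -0.20 at 250 ng/L. At 250 ng/L 3 arrays lay below every control, 1 among the controls and 1 just at their lower end. The shift was -0.43 ± 0.22 (95% interval -0.90 to 0.04), and limma gave an unadjusted p of 0.0701 and an adjusted p of 0.435. It was -0.70 on slide 1 and -0.17 on slide 2.

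The TRAPP complex, a tether of vesicles arriving from the ER and an exchange factor for Rab1, was represented by 3 subunits. TRAPPC4 was one of the least variable members, at -0.17, -0.08, -0.49, -0.42 and -0.60 in controls, against -0.27, -0.11, -0.41, -0.31 and -0.30 at 50 ng/L and -0.50, -0.68, -0.75, -0.31 and -0.68 at 250 ng/L. At 250 ng/L 3 arrays lay below all others. Its shifts were 0.07 ± 0.158 and -0.24 ± 0.158 against control and -0.31 ± 0.158 between the doses (limma, adjusted p = 0.687). TRAPPC1 had shifts of 0.04 ± 0.278 and -0.12 ± 0.278, and TRAPPC3 of 0.42 ± 0.303 and 0.11 ± 0.303. COG1, a subunit of the COG tether of intra-Golgi transport, had shifts of 0.11 ± 0.48 and 0.15 ± 0.48. Golgin A4, a coiled-coil tether of the trans-Golgi, had shifts of -0.13 ± 0.23 and 0.10 ± 0.23. TMS-2, which the rule found through a synonym containing the word Golgi, had shifts of 0.33 ± 0.331 and 0.10 ± 0.331. AP-1 mu-1, a clathrin adaptor subunit, was well above background on 0 arrays and GRASP55, a Golgi stacking protein, on 3, and neither was tested.

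**Figure D3:**
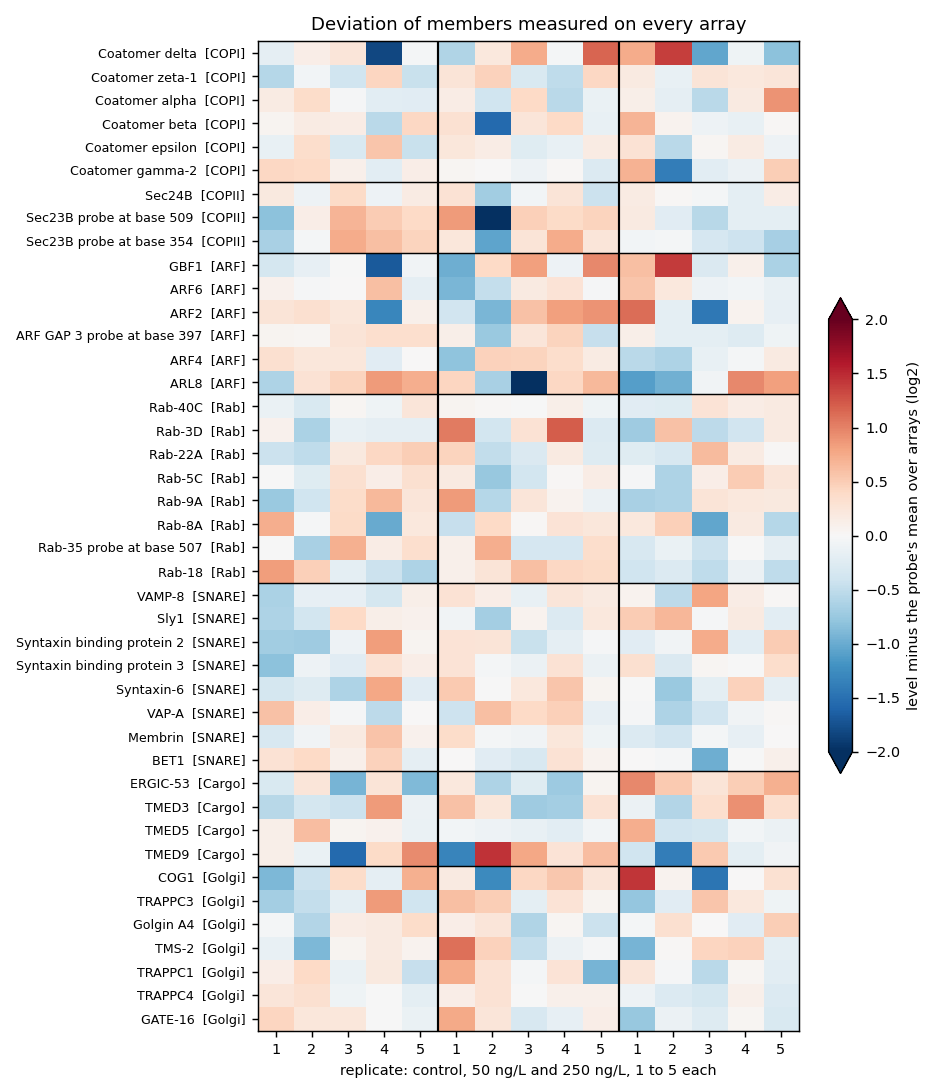
Level of the 42 tested members measured on every array (rows, grouped by role) on each of the 15 arrays (columns; control, 50 ng/L and 250 ng/L, replicates 1 to 5) minus the probe's mean over the arrays, on the log2 scale from -2 to 2. Colours vary more between arrays of a group than between groups. The low values of Sec23B and coatomer beta fall together on 50 ng/L replicate 2, and those of coatomer delta and GBF1 on control replicate 4. ARF2 was also low on control replicate 4 (-5.17), but its lowest level was on 250 ng/L replicate 3 (-5.29).

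With more members than arrays, extreme values of several members had to fall on the same arrays. The share over all probes is therefore given beside each count. Among the 42 members measured on every array, 50 ng/L replicate 2 held the lowest value of 7 (16.7%, against 13.6% of all probes), among them both Sec23B probes, Sec24B, coatomer beta and ARF GAP 3. Replicate 4 of the controls held the highest value of 7 members (16.7%, against 8.49% of all probes). It held the lowest value of 2, GBF1 and coatomer delta (4.76%, against 15.1% of all probes), a smaller share than over all probes. It was also low for ARF2 (-5.17, with the other controls between -3.76 and -3.54). At 250 ng/L, replicates 2 and 3 each held the lowest value of 6 members (14.3%, against 6.65% and 8.11% of all probes). The median deviation of the members from their means lay between -0.20, on 250 ng/L replicate 2, and 0.23, on 50 ng/L replicate 4. The 75th percentile signal ran from 1393 to 2468 in controls, from 543 to 3575 at 50 ng/L and from 796 to 2782 at 250 ng/L. It lay below every control on 50 ng/L replicates 2 to 5 and on 250 ng/L replicates 1, 2 and 5. With this brightness as a covariate 0 members were called by limma. Then 4, 2 and 3 had an unadjusted p under 0.05 in place of 0, 1 and 2, and the share of all probes there is not given. Between 75.6% and 91.7% of probes were well above background.

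The genes on either side of this route give the setting. Lists of ER folding and of ER translocation and glycosylation, which act before the COPII coat, had 16 of 17 and 16 of 18 tested probes with a shift above 0 at 250 ng/L, with medians of 0.89 and 0.62 beside -0.05 for all probes. Of these, 1 and 2 probes passed the test, against 2.05% of all probes called higher. They were protein disulfide-isomerase A4, a folding enzyme (2.01 ± 0.503, 1 of its probes, adjusted p = 0.0454), the translocon-associated protein alpha (1.34 ± 0.3, 1 of its probes, adjusted p = 0.0226) and the Sec61 beta subunit of the translocon (0.89 ± 0.209, adjusted p = 0.0297, limma). These calls held in 6 of 30, 21 of 29 and 16 of 30 alternative settings. The 2 lists hold 20 and 19 probes for 15 and 16 genes, so their probes are not separate genes. Without control replicate 2 and 250 ng/L replicate 3, 14 of 17 and 16 of 18 probes were above 0, with medians of 0.85 and 0.78. The 3 named probes were not called there (limma, adjusted p = 0.0629, 0.0503 and 0.0908), while 2 others of the second list were. With the pancreas markers as a covariate 14 of 17 and 16 of 18 were above 0. The medians of the lists were 0.86 and 0.78, with 0 and 2 probes called. Protein disulfide-isomerase A4 and Sec61 beta were then no longer called (limma, adjusted p = 0.0501 and 0.0676), so that 1 of the 2 called probes was another one, while the translocon-associated protein alpha was called (adjusted p = 0.0275).

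ER-Golgi cargo receptors and retrieval proteins outside the member rule had 8 of 8 probes above 0 at 250 ng/L, against 44.8% of all probes. Their median was 0.33, and 0 passed the test. The 8 probes stand for 6 genes, with B-cell receptor-associated protein 31 read at 0.35, 0.33 and 0.26. Without control replicate 2 and 250 ng/L replicate 3, 7 of 8 were above 0. The KDEL receptor, which returns escaped ER proteins from the Golgi, had a shift of 0.77 ± 0.251 (limma, adjusted p = 0.157). Another entry, for KDEL receptor 2, had a shift of 0.33 (limma, adjusted p = 0.758). Past the Golgi, clathrin, adaptors and endosomal sorting proteins had 13 of 21 probes above 0, a median of 0.05 and 0 calls. Among dynein and dynactin probes, the motor that draws vesicles towards the Golgi, 5 of 12 were above 0 and 2 were called lower, against 0.651% of all probes. They were 1 probe of dynactin subunit 2 (-1.81 ± 0.251, limma, adjusted p = 0.000302) and dynein light intermediate chain 2 (-0.63 ± 0.143, adjusted p = 0.0235). Their calls by limma held in 29 and 17 of 30 alternative settings. The other dynactin subunit 2 probes had shifts of 0.28 and 0.08 (limma, adjusted p = 0.715 and 0.932). With the pancreas markers as a covariate, 7 of the 12 probes were above 0 and the median was 0.06 in place of -0.05. The same dynactin subunit 2 probe was then called (limma, adjusted p = 0.000682), while dynein light intermediate chain 2 was not (adjusted p = 0.0649). In the remaining list, of SNARE disassembly and tethering, 1 of 2 probes was above 0. At 50 ng/L 0 probes of these 6 lists were called. The difference between the members and any of these lists was not tested.

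**Figure D4:**
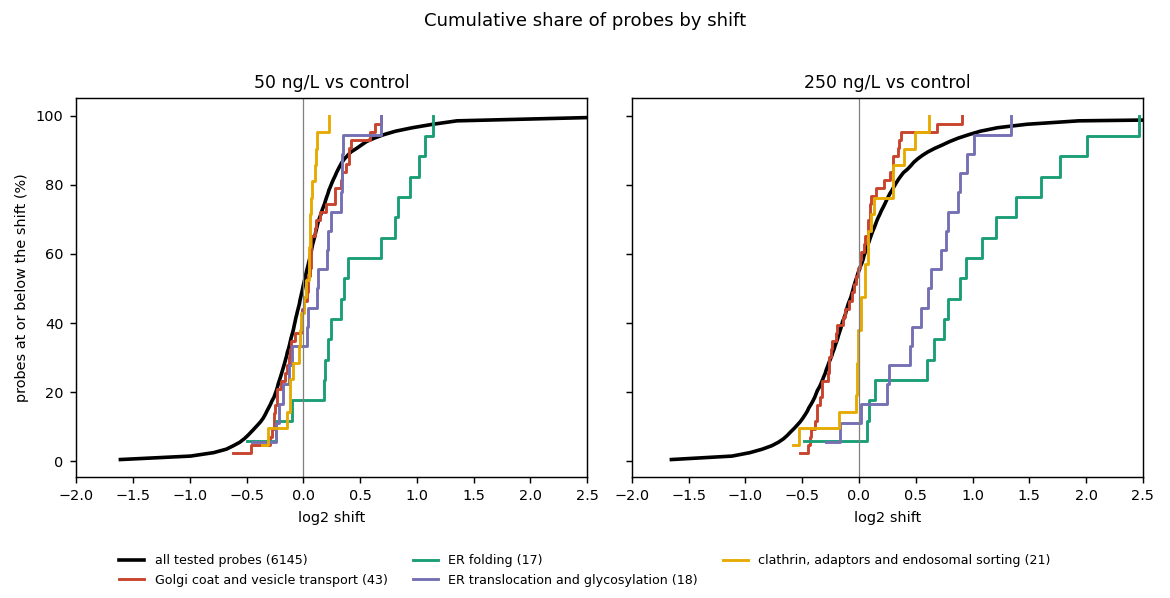
Cumulative share of probes (percent) by log2 shift at 50 ng/L (left) and 250 ng/L (right) against control, for the 43 tested members, all 6145 tested probes and 3 neighbouring lists. The curve of the members follows that of all probes through the middle (medians -0.04 and -0.05 at 250 ng/L), while the ER folding and ER translocation curves lie to the right (medians 0.89 and 0.62).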

How the data were processed

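The intensity values deposited by the authors came, per the file headers, from Agilent Feature Extraction 10.7.1.1, which subtracts background from each spot and does not normalize between arrays. The authors' deposited table, of log2 values made by steps not given in the sources used here, served as an alternative only. Of each probe's 2 spots, those with an outlier flag (0 to 29 per array, 146 in all) were left out, the log2 processed signals of the others were averaged, and the log2 of the array's 75th percentile was subtracted. No spot was saturated (0). Control spots and 5 custom control probes were left out. Probes well above background on at least 5 of 15 arrays were tested (6145 of 7152). The number of arrays limits the precision. The most alike pair of arrays differed with an SD of 0.722 in log2 values over probes, so no array was counted as a repeat.

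Group means over the 15 arrays were fitted with limma 3.58.1 in R 4.3.3 (12 residual degrees of freedom). Version 1.17.8 of data.table read the files. Benjamini-Hochberg adjustment ran over all 6145 probes, with a threshold of 0.05. The fit was checked on simulated data, with shifts larger than any shift of the members. That check does not show what could be detected at the size of the members' shifts. Alternatives were another background correction (normexp), other scalings, the authors' values, other filters, slide as a block and each slide alone, each array left out, pancreas markers or array brightness as covariates, the 2 groups alone and probes averaged per gene.

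Replicates are numbered in accession order, and the labels pair none of them. The members and the gene lists were chosen with earlier results of these data known. Named members are, per role, the 3 with the smallest p at 250 ng/L and the 1 at 50 ng/L, the 5 with the largest and the 5 with the lowest shift at 250 ng/L, and other probes of these genes; the rest are given by their shifts. Of the tested members, 1 is counted but not reported here by name. Of neighbouring lists, called genes and up to 4 with the smallest p could be named. Gene names are those of the array design and can be old. Positions are starts of probes in their contigs. No probe sequence was used here.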

Additional observations from a re-analysis of the deposited data

Results flagged for a closer look

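Dixon's test at the 95% level was run on 72 groups of 5 arrays of the named members. In 6 of these groups 1 array stood apart from the other 4. Chance alone does this in about 1 in 20 groups that are not picked by their values. The named members were picked by p and shift on these same arrays, so that rate does not apply to them. All 6 arrays were the lowest of their group. Control replicate 4 was low for 2 members: GBF1 stood at -1.13, with the nearest control at 0.21, and coatomer delta at -4.09, with the nearest at -2.44. At 50 ng/L, the Sec23B probe at base 509 stood at -5.25 on replicate 2, with the nearest array at -2.80, and ARF4 at -5.39 on replicate 1, with the nearest at -4.43. At 250 ng/L, BET1 stood at -3.57 on replicate 3, with the nearest at -2.61, and coatomer zeta-1 at 0.69 on replicate 2, with the nearest at 1.01.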

How the results depend on the processing

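The count of members called by limma was 0 in each of 3 comparisons under all 30 alternatives, and each single array left out gave 0 to 0. The smallest adjusted p of any member over these settings was 0.305 for the low dose, 0.0561 for the high dose and 0.104 between them. With single arrays left out, the median shift of the members ran from -0.05 to 0.06, from -0.12 to 0.01 and from -0.11 to 0.00. With normexp background correction it was 0.19 at 50 ng/L and -0.18 between the doses, where the median of all tested probes was 0.19 and -0.15 in place of -0.01 and -0.05, so the members stayed near all probes; the cause of that common move was not tested. In the other settings each median moved by less than 0.103, the within-group SD of the members' median deviation on single arrays. Differences between means of 5 arrays spread less than single arrays, so this is a loose yardstick. With normexp, 24 of 43 members lay above 0 at 250 ng/L in place of 19. Their median there was 0.05 in place of -0.04, and that of all tested probes was 0.09 in place of -0.05. The share of all probes above 0 in that setting is not given here. Of 2235 shifts of named members under the alternatives, 166 had another sign than reported, and 0 were called. The calls of neighbouring lists were rerun as alternatives chosen after seeing the data. No paired analysis was possible because the labels give no replicate numbers. A dim probe near background and 5 arrays per group limit what could be detected.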
